A study of Homo sapiens with 6 samples.

Results

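Cytosolic ribosomal protein genes encode the proteins of the small (RPS) and large (RPL) subunits of the ribosome that translates messenger RNA in the cytosol. The members were chosen by name: probes annotated to RPL or RPS with a number, or to the stalk genes RPLP0, RPLP1 and RPLP2 or to RPSA. Genes of the RPS6K kinase family, pseudogenes and RPS4Y1 were left out. A mean log2 signal of at least 7 over all arrays was required, and the probe with the highest mean stood for each gene. This gave 74 genes, 47 of the large and 27 of the small subunit, of 10503 named genes with a probe at that minimum. The whole array holds 48802 probes, of which 16752 reached the minimum. RPL10 and RPL3L match by name but lie just under the minimum, with means of 6.79 and 6.78 for their brightest probes, and RPL39L lies just inside it with 7.09. RPS27A, RPLP0, RPSA and RPL22L1 were not analysed here.

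The arrays hold total RNA from LNCaP, an androgen-sensitive prostate cancer line taken from a lymph node metastasis. In the arrays labelled miR-331-3p the cells had been transiently transfected with 30 nM of pre-miR-331-3p, a precursor of the microRNA. In those labelled miR-NC they had received 30 nM of pre-miR-NC, a negative control precursor. RNA was harvested 24 h later in both, and each group has 3 Illumina Human-6 v3 arrays, A, B and C. All come from a single cell line, and the signal of a bulk sample cannot tell less RNA per cell from fewer cells that hold it. The arrays carried signal for the prostate genes TMPRSS2 (mean 11.71), FOLH1 (10.92) and HOXB13 (9.70), the luminal keratin KRT18 (12.69), and KLK2 (8.27) and KLK3 (8.60). PTPRC (6.85), COL1A2 (6.76) and KRT5 (6.69), markers of leukocytes, fibroblasts and basal cells, were under the minimum of 7, while COL1A1 (7.24) and PECAM1 (7.10) were close to it.

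Each ribosome holds nearly all of these proteins in a single copy, and ribosomal protein mRNAs are among the most abundant of a growing cell. Most of them start at a cytosine followed by a stretch of pyrimidines, the terminal oligopyrimidine (TOP) motif, through which mTORC1 and LARP1 set how actively they are translated. An array reads how much mRNA there is and not how well it is translated. A microRNA pairs with target mRNAs mainly through its seed, bases 2 to 8, shown here in capitals for the mature microRNA that the precursor yields (RefSeq, GRCh38.p14, chromosome 12, 95308480 to 95308500, plus strand).
hsa-miR-331-3p: gCCCCUGGgccuauccuagaa
No ribosomal protein mRNA was searched for sites of this seed.

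The starts of 4 members are shown because they contrast 2 genes that changed with a pair of close relatives that differ at their start. Each is 100 bases from RefSeq's GRCh38.p14 promoters, 70 before and 30 after the annotated start, and the capitals mark the longest pyrimidine run of at least 7 bases that begins with C within 20 bases of the start. RPL13 (chr16:89560612-89560711, plus strand) has 3 listed starts, of which the only one with such a run is shown. RPL28 lies at chr19:55385862-55385961 (plus strand), RPS27 at chr1:153990692-153990791 (plus strand) and RPS27L at chr15:63157448-63157547 (minus strand).
RPL13: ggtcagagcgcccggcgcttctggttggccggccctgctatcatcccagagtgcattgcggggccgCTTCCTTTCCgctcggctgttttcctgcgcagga
RPL28: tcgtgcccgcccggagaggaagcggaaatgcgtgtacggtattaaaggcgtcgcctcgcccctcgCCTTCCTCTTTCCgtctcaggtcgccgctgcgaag
RPS27: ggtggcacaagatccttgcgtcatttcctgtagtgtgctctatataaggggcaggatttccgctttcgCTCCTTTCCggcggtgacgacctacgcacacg
RPS27L: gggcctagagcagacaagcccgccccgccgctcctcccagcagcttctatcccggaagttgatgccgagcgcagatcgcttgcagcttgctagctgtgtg
The runs of RPL13, RPL28 and RPS27 are 10, 13 and 9 bases long and span the start, whereas RPS27L has none. A promoter was found for 63 of the 74 members, and 52 of these (82.5%) held such a run at a listed start, on the sense strand, against 6522 of 27305 genes in the whole table (23.9%). It was present for 33 of 39 large and 19 of 24 small subunit genes. CCGGAAG, the core bound by ETS factors, lay on either strand in 22 of the 63 (34.9%) and in 12.2% of all genes, the YY1 core AAGATGGC in 6 (9.52%) and 3.52%, and the TATA box TATAAA in 5 of the 63 (7.94%) and in 3819 of the 27305. These last counts used the 300 bases around each start. The median log2 difference between the groups, described next, was 0.06 for the 52 members with a run and 0.03 for the 11 without.

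Differences are given as arrays labelled miR-331-3p minus those labelled miR-NC on the log2 scale, and a positive value means a higher signal under the label miR-331-3p. Under these labels the direction is opposite to the study's: ERBB2 and RALA, 2 genes that the study describes as lowered by miR-331-3p, had more signal under the label miR-331-3p, by 1.11 and 0.96. The folds under the labels were 2.156 for ERBB2 and 1.943 for RALA. For both genes the study reports array decreases of nearly the same size. Whether the labels of the groups were exchanged was not tested. If they were, every direction below would be the reverse. The labels were kept, and every direction below is a direction under the labels.

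Of the 74 ribosomal protein genes, 3 were higher under the label miR-331-3p at an adjusted p under 0.05 in limma and 0 were lower. All 3 encode large subunit proteins: RPL13, RPL28 and RPL23A. They are 4.05% of the members, while 4.30% of all 16752 probes were called higher and 3.66% lower, so the share of members called higher was close to that of the array as a whole. At an unadjusted p under 0.05, 10 of the 74 members were higher and 1 was lower, against 1816 higher and 1879 lower of all 16752 probes. The methods' t-test, after Benjamini-Hochberg adjustment, called 0 members in either direction. The share of all probes that it called is not given here, so this 0 is not read as a result about the members.

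RPL13, a large subunit protein whose gene is mutated in an inherited skeletal dysplasia, had log2 signals of 9.75, 9.76 and 9.77 in the arrays labelled miR-331-3p, against 9.27, 9.52 and 9.33 in those labelled miR-NC. The groups did not overlap, and the arrays labelled miR-331-3p lay close together. The difference was 0.39 (SE 0.081, a fold of 1.31), with an adjusted p of 0.014 in limma. RPL28, also a large subunit protein, had 8.80, 8.94 and 8.93 in the arrays labelled miR-331-3p, against 8.43, 8.65 and 8.47 in those labelled miR-NC. Here too every array labelled miR-331-3p was above every array labelled miR-NC, by 0.37 on average (SE 0.084, a fold of 1.29, adjusted p = 0.020 in limma). RPL23A, which sits beside the exit of the tunnel through which the new protein leaves, had 10.84, 10.84 and 10.89 in the arrays labelled miR-331-3p, against 10.57, 10.35 and 10.67 in those labelled miR-NC. Its difference of 0.33 (SE 0.088, a fold of 1.25) had an adjusted p of 0.046 in limma, and miR-NC B was its lowest array. The call of RPL23A was lost whenever any of the 6 arrays was left out (adjusted p 0.052 to 0.17). RPL13 and RPL28 were no longer called without miR-331-3p B, miR-NC A or miR-NC C, with adjusted p up to 0.072 and 0.092 over the arrays left out.

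**Figure D1:**
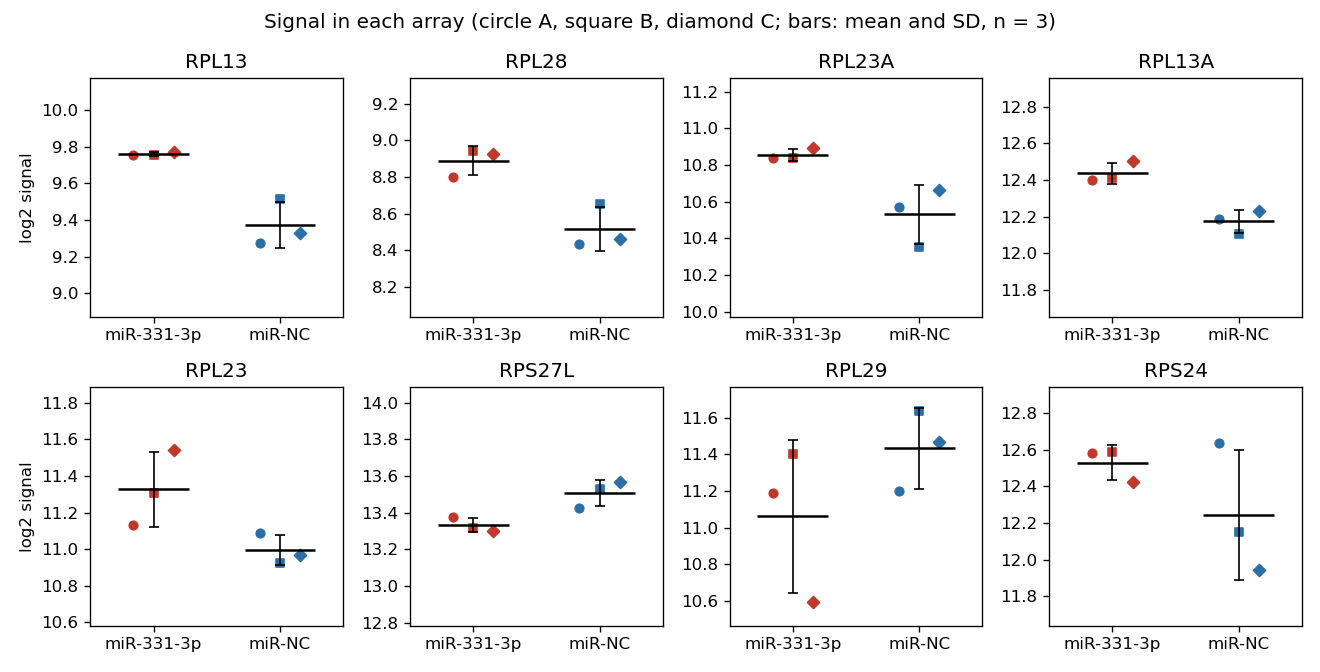
log2 signal (vertical axis, the same span of 1.3 in every panel) of 8 ribosomal protein genes in each array, with the arrays labelled miR-331-3p in red at the left and those labelled miR-NC in blue at the right. Symbols mark replicates A, B and C, and the bars are the mean and SD of 3 arrays. RPL13, RPL28, RPL23A, RPL13A and RPL23 are separated upwards, RPS27L is separated downwards, and RPL29 and RPS24 overlap.

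With the 3 called genes included, 10 members had all 3 arrays labelled miR-331-3p above all 3 labelled miR-NC: RPL13, RPL28, RPL23, RPL23A, RPL18, RPL13A, RPL19, RPL32, RPL14 and RPL4. All of them encode large subunit proteins, as read by the brightest probe of each gene. The groups were separated in the other direction for 3 members, RPL36AL, RPL26L1 and RPS27L. A second probe of RPL36AL went the opposite way (0.08, separated upwards), while that of RPL26L1 was at -0.29 and separated downwards. Of the 43 other probes of members, 7 were separated upwards and 4 downwards. Those separated upwards include probes of the small subunit gene RPS29 at 0.27 and 0.22, while another at -0.09 overlapped. Other probes of RPL13 (0.01), RPL18 (0.07) and RPL14 (0.39) overlapped. Those of RPL32 were at 0.19, separated upwards, and -0.02, overlapping. Among all probes, 13.4% were separated upwards and 13.3% downwards, so 10 of 74 is close to the array as a whole and 3 of 74 is below it. Whether the subunits differ was not tested.

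RPL13A, known in human monocytes for leaving the ribosome to silence inflammatory mRNAs, had 12.40, 12.41 and 12.50 in the arrays labelled miR-331-3p, against 12.19, 12.11 and 12.23 in those labelled miR-NC. It missed the threshold narrowly, with a difference of 0.26 (SE 0.074, adjusted p = 0.053 in limma). RPL23, which can bind and inhibit the p53 ligase MDM2, had 11.13, 11.30 and 11.54 in the arrays labelled miR-331-3p, against 11.09, 10.93 and 10.97 in those labelled miR-NC, a difference of 0.33 (SE 0.102, adjusted p = 0.075). Its arrays labelled miR-331-3p spread more widely than those labelled miR-NC, and the lowest of them was only just above miR-NC A. RPL19 differed by 0.26 (adjusted p = 0.090) and RPL18 by 0.32 (adjusted p = 0.13). For RPL18, miR-NC B was at 12.94 while the other arrays were between 13.39 and 13.63. RPL32, RPL14 and RPL4 differed by 0.20, 0.16 and 0.14 and did not pass.

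The highest small subunit differences were those of RPS3A (0.29), RPS24 (0.29) and RPS28 (0.25), and none passed in limma (adjusted p 0.22, 0.28 and 0.15). RPS24, mutated in some families with Diamond-Blackfan anaemia, had 12.58, 12.59 and 12.42 in the arrays labelled miR-331-3p, against 12.64, 12.15 and 11.94 in those labelled miR-NC. The groups overlapped because miR-NC A was the highest of all 6. Over the arrays left out, its difference ran from 0.14 without miR-NC C to 0.48 without miR-NC A. Without miR-NC A it became the only member called, and the share of all probes called in that fit is not given. A second probe of RPS24 was at -0.21 and separated downwards (adjusted p = 0.11 in limma).

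At the other end, RPL29, a heparin-binding protein of the large subunit, had 11.19, 11.40 and 10.59 in the arrays labelled miR-331-3p, against 11.20, 11.64 and 11.47 in those labelled miR-NC. miR-331-3p C was far below the other arrays, and the groups overlapped. The difference of -0.37 (SE 0.177, adjusted p = 0.25 in limma) was the lowest among the members. It ran from -0.54 without miR-331-3p B to -0.14 without miR-331-3p C. RPS27L, a p53-responsive relative of RPS27, had 13.37, 13.32 and 13.30 in the arrays labelled miR-331-3p, against 13.43, 13.53 and 13.57 in those labelled miR-NC, and its groups did not overlap. Its difference of -0.18 (SE 0.073, adjusted p = 0.18) did not pass, nor did that of RPS13 (-0.19, adjusted p = 0.28).

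Over the whole family, 53 members had a positive and 21 a negative difference, from -0.37 to 0.39. The median was 0.08, against 0.00 over all probes tested. It was 0.05 for the large subunit, where 35 of 47 were positive, and 0.10 for the small subunit, where 18 of 27 were positive. The members share the same 6 arrays, so these counts are not independent observations. The median SE of the members was 0.088, against 0.083 over all probes, and their SEs ran from 0.068 (RPL26L1) to 0.177 (RPL29). For 72 of 74 members the 95% interval of the difference lay within 1.5-fold in both directions.

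**Figure D2:**
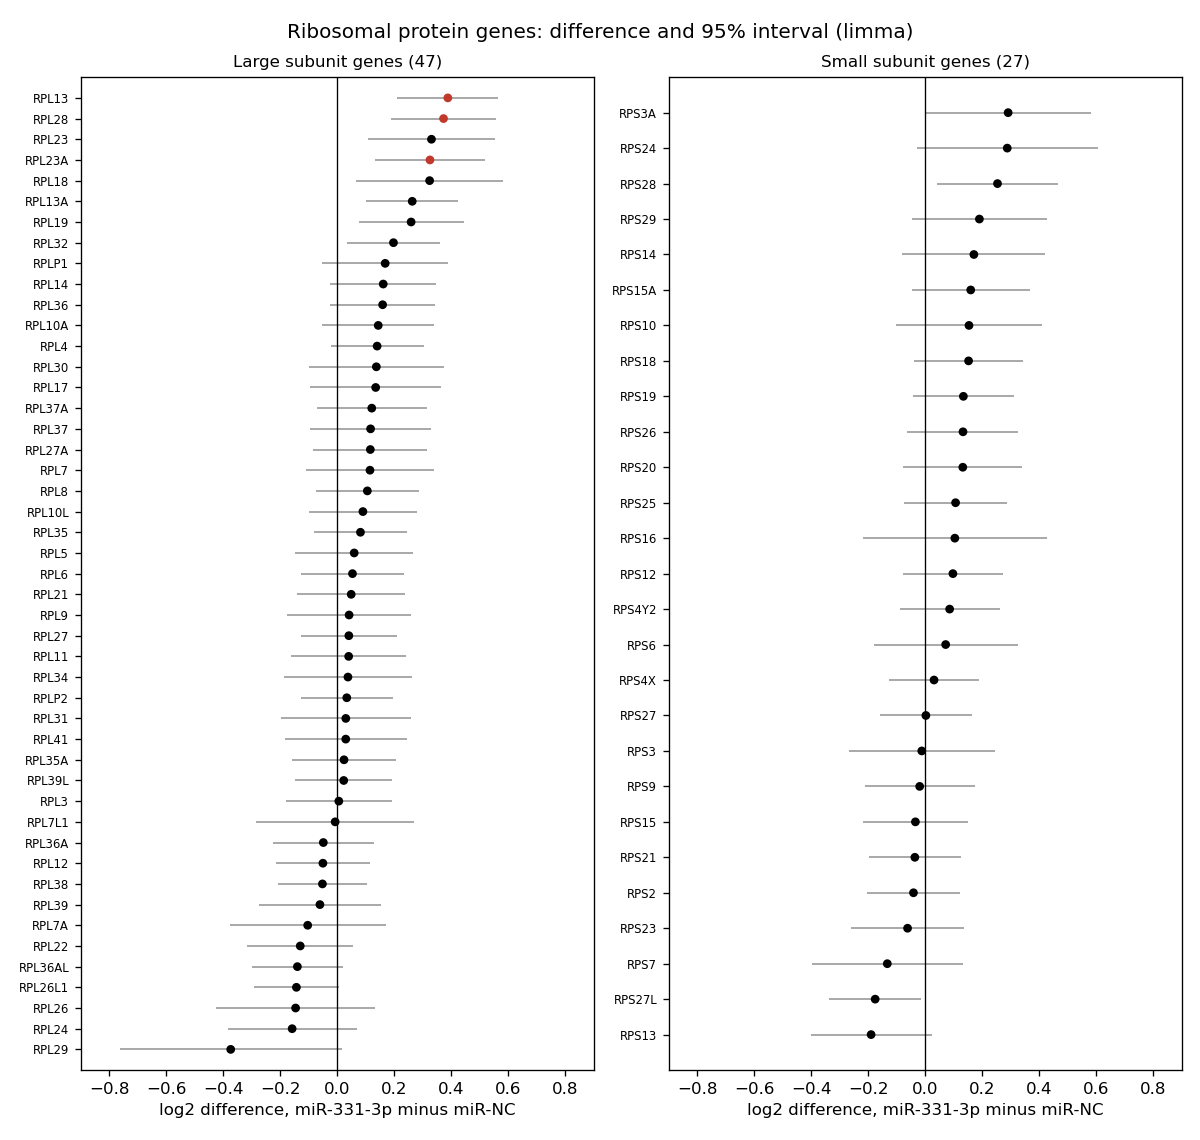
Difference between the groups, miR-331-3p minus miR-NC (horizontal axis, log2) for each of the 47 large subunit (left) and 27 small subunit genes (right), sorted by size, with limma's 95% intervals as grey bars. Red points mark RPL13, RPL28 and RPL23A, whose adjusted p was under 0.05, and most of the other intervals cross 0.

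The shift of the median did not run evenly through the arrays. Taken as the median deviation of the 74 members from their own means, the arrays labelled miR-331-3p stood at 0.01 (A), 0.03 (B) and 0.08 (C), against 0.02 (A), -0.10 (B) and -0.01 (C) for those labelled miR-NC. The groups overlapped, since miR-NC A was above miR-331-3p A, and miR-NC B was the only array far below 0. It was the lowest array for 33 of 74 members, and miR-331-3p C was the highest for 25. However, miR-NC B was also the highest for 13 members, and miR-331-3p C the lowest for 11. The small subunit genes in miR-NC B had a median deviation of -0.14 and the large subunit genes -0.05, while that of all probes was 0.00 in this array. Without miR-NC B the median difference of the members was 0.04, with 0.04 for the large and 0.03 for the small subunit. RPL13 and RPL28 ran against this pattern, as miR-NC B was the highest array labelled miR-NC for both, and their differences without it were 0.46 and 0.44.

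**Figure D3:**
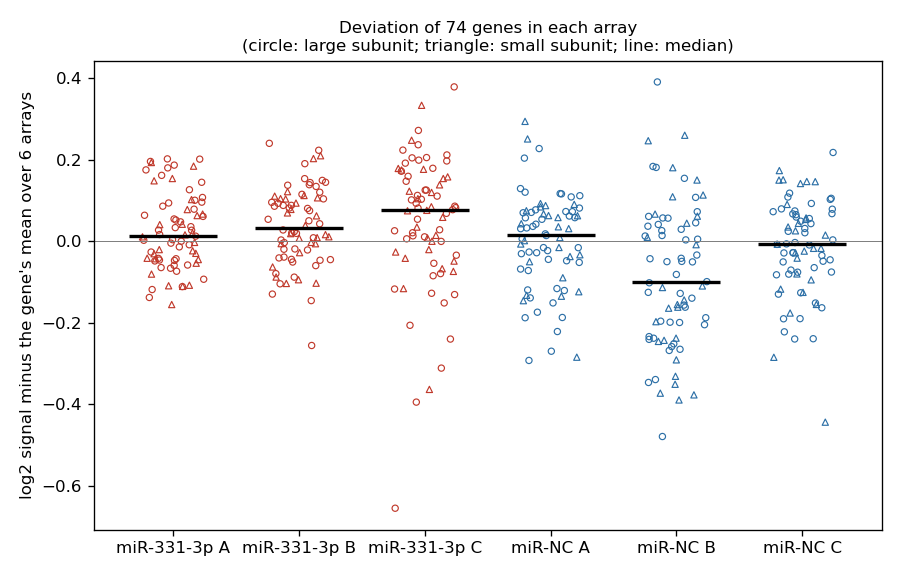
Deviation of each of the 74 genes from its own mean over the 6 arrays (vertical axis, log2), with arrays labelled miR-331-3p in red at the left and those labelled miR-NC in blue at the right. Circles are large and triangles small subunit genes, spread sideways for legibility, and black lines mark the medians, the lowest of which is that of miR-NC B at -0.10.

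All 3 called members had mean signals under 11, in the lower part of the family's range. The members' median signal was 13.13, against 8.12 over all probes tested, and the highest value on the arrays was 13.94. Of the 40 members with a mean of at least 13, 0 were called in limma, with 2 higher and 1 lower at an unadjusted p under 0.05. The methods' t-test called 0 of them after adjustment, and its share over all probes is not given. Of all 245 probes in that range only 1 was called in either direction in limma (0.408%), so calls were rare there for any gene. At an unadjusted p under 0.05, 9 of the 245 were higher and 7 lower. Between 11 and 13, 0 of 22 members were called, against 10.9% of all probes. Below 11, 3 of 12 were, against 7.83% of all probes. The cut at 11 lies just above RPL23A (10.69), the brightest called member, so it places all 3 calls below it. This contrast was not tested. RPS2 (13.73), RPS10 (13.68), RPL27 (13.67) and RPL38 (13.66) had the highest mean signals, and their differences were -0.04, 0.15, 0.04 and -0.05. That of RPS10 ran from 0.00 without miR-NC B to 0.26 without miR-NC C. RPL39L (7.09), RPL37 (7.91), RPS4Y2 (8.05) and RPL32 (8.32) had the lowest, with 0.02, 0.12, 0.09 and 0.20. The signal depends on the probe as well as on the mRNA, and it does not order the genes by abundance.

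**Figure D4:**
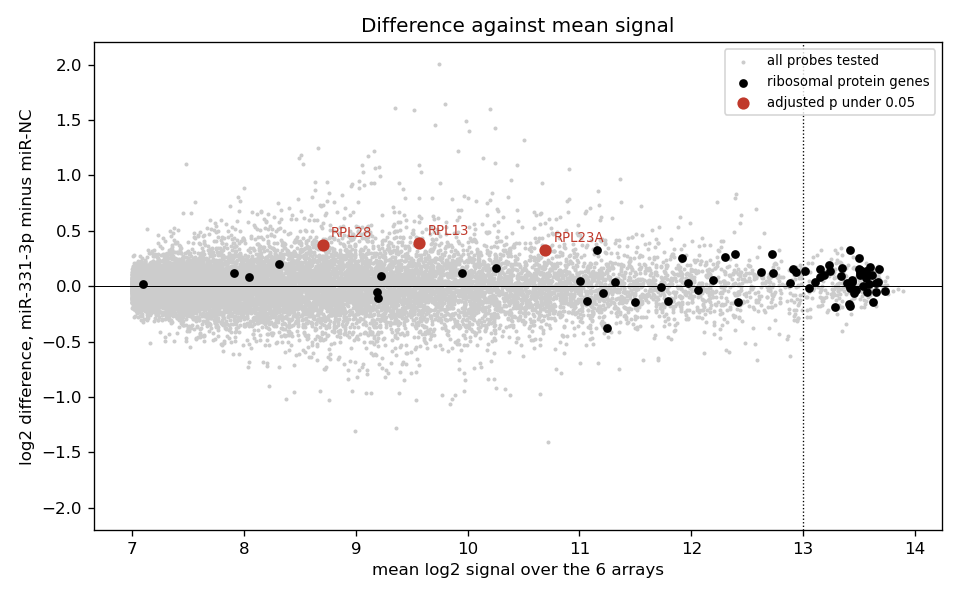
Difference between the groups, miR-331-3p minus miR-NC (vertical axis, log2) against mean log2 signal over the 6 arrays, for all 16752 probes tested (grey) and the 74 ribosomal protein genes (black, or red where the adjusted p was under 0.05). The dotted line marks a signal of 13, to the right of which 40 members lie and the spread of all probes is narrow.

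Besides RPL13A and RPL23, 10 members were described for a known role. RPL5 and RPL11, which with 5S ribosomal RNA form the particle that inhibits MDM2 when ribosome assembly fails, differed by 0.06 and 0.04. RPL5 had 12.20, 12.28 and 12.20 in the arrays labelled miR-331-3p, against 12.27, 11.96 and 12.27 in those labelled miR-NC, and RPL26, which binds p53 mRNA, differed by -0.15 with its groups overlapping. The stalk proteins RPLP1 and RPLP2, which recruit elongation factors, differed by 0.17 and 0.03. RPS6, the substrate of the S6 kinases, differed by 0.07, and RPS3, at the mRNA entry site, by -0.01. RPS14 and RPS19, whose loss causes forms of red cell failure, differed by 0.17 and 0.13, and RPL22, a binder of a viral RNA, by -0.13. The difference of RPS14 ran from 0.02 without miR-NC B to 0.26 without miR-NC A. None of these passed in limma, with adjusted p from 0.38 to 0.97.

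Several members come with a paralog. RPS27 had 13.42, 13.42 and 13.43 in the arrays labelled miR-331-3p, against 13.45, 13.48 and 13.32 in those labelled miR-NC, a difference of 0.00 on the log2 scale, while RPS27L was at -0.18. This is the pair whose starts are shown above, RPS27 with a pyrimidine run and RPS27L without. RPL26 and RPL26L1 differed by -0.15 and -0.14, and RPL36A and RPL36AL by -0.05 and -0.14. A second probe of RPL36AL was at 0.08 and that of RPL26L1 at -0.29. RPL26L1 had 11.46, 11.41 and 11.42 in the arrays labelled miR-331-3p, against 11.57 in each of those labelled miR-NC. RPL39 and RPL39L differed by -0.06 and 0.02, RPL7 and RPL7L1 by 0.11 and -0.01, and RPL3, the relative of the muscle gene RPL3L, by 0.01. A second probe of RPL7L1 was at -0.46, with its groups overlapping (adjusted p = 0.32 in limma). Its difference ran from -0.65 without miR-331-3p B to -0.09 without miR-331-3p C. RPL10L, a retrogene of RPL10 used in the testis, differed by 0.09. No paralog passed in limma, and the difference between the members of a pair was not tested.

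Probes of 1 gene did not always move together, which bears on every value above. The 74 genes had 117 probes at the minimum signal, and 36 genes had more than 1. For 16 of these 36, another probe had a sign opposite to that of the probe with the highest mean, and the median range between probes of a gene was 0.21. The second probe of RPL13 had 8.68, 8.32 and 8.12 in the arrays labelled miR-331-3p, against 8.25, 8.34 and 8.50 in those labelled miR-NC, and a difference of only 0.01. RPL28 and RPL23A had no second probe at the minimum signal. For RPL29 both probes were low, at -0.37 and -0.36, and for RPS24 they were opposed, at 0.29 and -0.21.

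Of the 43 other probes, 1 was called higher and 1 lower in limma. A second probe of RPL36 had 9.10, 9.35 and 9.55 in the arrays labelled miR-331-3p, against 9.02, 8.70 and 8.95 in those labelled miR-NC, a difference of 0.45 (SE 0.118, adjusted p = 0.042). The brighter probe of RPL36 gave 0.16. The call of the second probe was lost when any array but miR-331-3p A was left out, with adjusted p up to 0.18. A probe of RPS15 had 10.67, 10.79 and 10.42 in the arrays labelled miR-331-3p, against 11.07, 11.10 and 11.04 in those labelled miR-NC, a difference of -0.44 (SE 0.095, adjusted p = 0.016), while the other probes of RPS15 were at -0.04 and 0.17. This call was lost without miR-NC A, miR-NC B or miR-NC C, with adjusted p up to 0.076. Ribosomal protein genes have many processed pseudogenes of nearly the same sequence, and which transcripts a probe read was not tested. The 8 probes annotated to such pseudogenes included 7 with a positive difference, a median of 0.11 and 0 calls in limma. Of these 8, 3 were higher at an unadjusted p under 0.05, against 1816 of all 16752 probes.

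**Figure D5:**
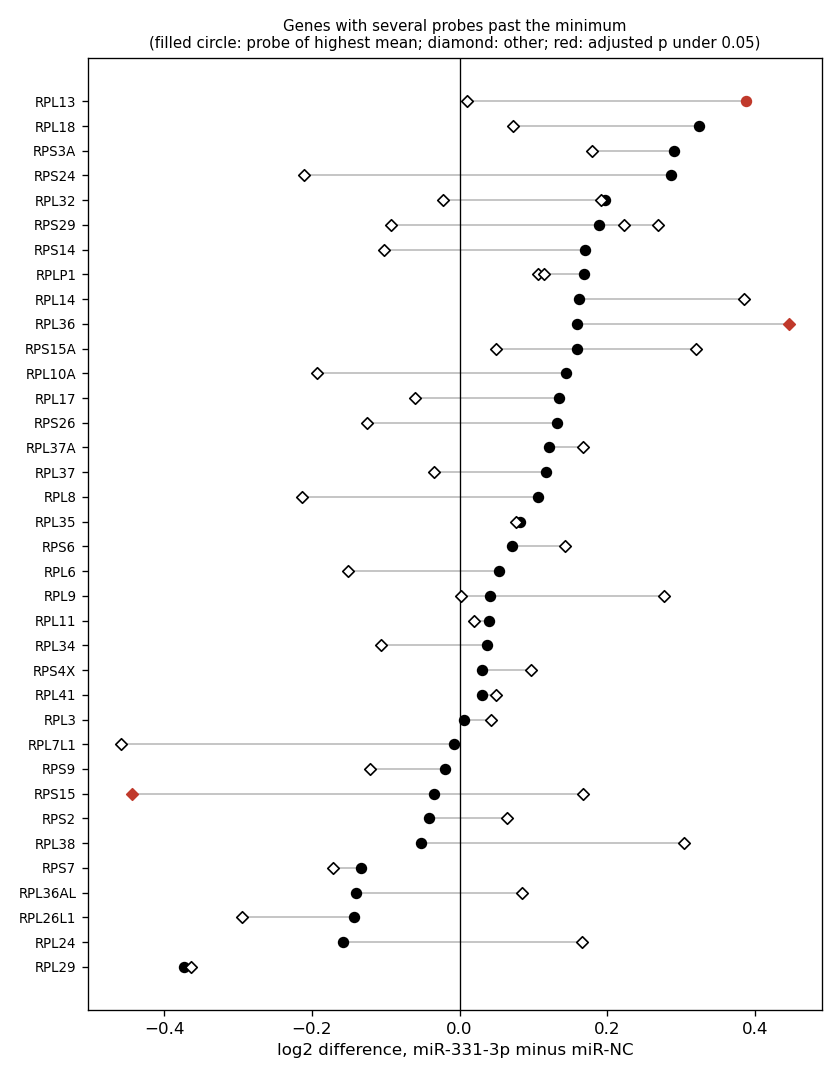
Difference between the groups, miR-331-3p minus miR-NC (horizontal axis, log2) for every probe of the 36 genes with several probes at the minimum signal. Filled circles are the probes of highest mean, diamonds the others, and red marks an adjusted p under 0.05 (RPL13, RPL36 and RPS15); grey lines join the probes of a gene and cross 0 for 16 of them.

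The genes around the ribosome were described as lists of known members. Of the 77 mitochondrial ribosomal protein genes, which build a separate ribosome in the mitochondrion, 2 were higher and 3 lower in limma, with a median difference of -0.05 against 0.08 for the cytosolic set. Of 14 other genes with TOP mRNAs, such as elongation factors, 0 were called (1 lower at an unadjusted p under 0.05) and the median was 0.01. FAU, which is made as a fusion of a ubiquitin-like part and a small subunit protein, differed by 0.05. Among 34 ribosome biogenesis factors, 2 were higher and 1 lower, with a median of -0.07. GRWD1, a histone-binding protein that takes part in large subunit assembly, was higher by 0.67. The RNA helicase DDX21 was higher by 0.41, and LLPH, a nucleolar protein, had a difference of -1.02. GRWD1 is in a list that the study drew from these samples, of genes lowered by miR-331-3p. Its direction under the labels is opposite to that list, as for ERBB2 and RALA, and is not independent evidence. Of 13 genes of RNA polymerase I and its factors, 1 was lower, POLR1E (-0.31), and the median was -0.02. None of 7 regulators of ribosomal protein synthesis, such as MTOR, RPTOR and MYC, was called (0, with 1 higher and 2 lower at an unadjusted p under 0.05), nor any of 8 ribosome quality and stress genes (0, with 0 at an unadjusted p under 0.05). All of these counts stand beside 4.30% called higher and 3.66% lower among all probes. At an unadjusted p under 0.05, 1816 of all 16752 probes were higher and 1879 lower.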

How the data were processed

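Total RNA from LNCaP cells was profiled on 6 Illumina Human-6 v3 arrays, 3 for each label. The authors deposited log2 values: signals were background corrected, log2 transformed and variance stabilized with lumi, then quantile normalized in Partek Genomics Suite. The raw signals came in a table with 12 columns that no label assigns to an array, and they were left out. Quantile normalization gives every array the same distribution (median 6.872, range 6.52 to 13.94), which removes any shift shared by most probes.

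Gene symbols came from GEO's platform annotation and were brought up to date through their gene identifiers. The 16752 probes with a mean of at least 7 were tested with limma 3.58.1 (lmFit and eBayes) in R 4.3.3, with two-sided p-values adjusted over all of them by Benjamini-Hochberg and a threshold of 0.05. No source ties an array to a culture, so the p-values reflect only how far these arrays spread, and their number limits the precision. An exact permutation test of 3 against 3 cannot give a p under 0.1. The fit was tested on simulated data. Named were the called members, the 4 brightest and 4 dimmest, members with a known role or a paralog and their other probes; members named for separated groups, for the ends of the ranking or for a call by another probe were chosen after their values were seen. Members and lists were chosen with earlier results of these data known. Alternatives were no minimum, a minimum of 7.5, array weights, the methods' t-test, an intensity trend, a block for the replicate letter, cyclic loess, the mean of all probes and leaving out each array. Sequences were read with Python 3.11.15 and pandas 2.3.3, and figures drawn with matplotlib 3.10.9.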

Additional observations from a re-analysis of the deposited data

How the results depend on the processing

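The number of members called higher was 3 in the limma fit, 0 with the methods' t-test after adjustment and 5 with array weights, which added RPL13A and RPL23. It ranged from 0 to 3 over the arrays left out, with 0 without miR-331-3p B and without miR-NC C, 1 (RPS24) without miR-NC A, 2 without miR-331-3p C or miR-NC B and 3 without miR-331-3p A. Without miR-331-3p A the 3 were RPL13, RPL28 and RPL23 (adjusted p = 0.027 in limma), and RPL23A was not called. The number called higher was 3 with no minimum, 3 with a minimum of 7.5, 2 with an intensity trend, 4 with cyclic loess, 2 with the mean of all probes and 3 over the members with a mean signal under 13, an alternative chosen after seeing the data. The number called lower was 0 under every alternative run. These counts are of members only, with no share of all probes beside them. The median difference of the members ranged from 0.037 to 0.10 over the arrays left out, was lowest without miR-NC B, and was 0.041 with the mean of all probes. With the replicate letter as a block, 3 members were higher, 0 lower and the median was 0.076. The correlations of same-letter deviations were -0.04 (A), 0.02 (B) and 0.22 (C), and only C correlated best with its own letter. With 3 arrays in each group, these values cannot decide whether the letters pair the arrays. Under the block a second probe of RPL7L1 (-0.46) was also called. RPL23A was not called with no minimum (adjusted p = 0.072 in limma) or an intensity trend (0.057). The 3 called with no minimum were therefore not all the same genes as in the main fit. Array weights turned the signs of RPL39L (-0.019), RPL7L1 (0.068) and a second probe of RPL37 (0.0048), and cyclic loess that of RPL7L1 (0.0031). Small differences changed sign when an array was left out: RPL3 (-0.069 to 0.072), RPL5 (-0.046 to 0.11), RPL7L1 (-0.12 to 0.11), RPL11 (-0.045 to 0.11), RPL26 (-0.23 to 0.015), RPL39 (-0.16 to 0.027), RPL39L (-0.023 to 0.081), RPS3 (-0.16 to 0.11), RPS6 (-0.057 to 0.16), RPS15 (-0.089 to 0.031) and RPS27 (-0.045 to 0.033). So did other probes of RPL3 (-0.019 to 0.10), RPL11 (-0.059 to 0.10), RPL13 (-0.14 to 0.14), RPL18 (-0.066 to 0.20), RPL32 (-0.076 to 0.042), RPL37 (-0.083 to 0.052), RPS15 (-0.027 to 0.29) and RPS29 (-0.22 to 0.076). Apart from the array left out, the causes were not tested. At a mean signal of at least 13, 1 of 245 probes was called, and whether the signal limited the calls was not tested.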
